A study of Mus musculus with 13 samples.

Results

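Transcripts of interleukin-2 (Il2), the 3 chains of its receptor (Il2ra, Il2rb and Il2rg), the kinase and transcription factors that carry its signal (Jak3, Stat5a and Stat5b) and 3 feedback inhibitors (Cish, Socs1 and Socs3) were followed in CD4 single-positive (CD4SP) thymocytes. These 10 genes, of 35906 in the files, were chosen by name with their levels in these groups already known. Fold changes and adjusted p values for their gene totals therefore describe the 10 genes and support nothing further. The values are bulk RNA sequencing of sorted CD69-MHCI+ cells, the most mature (M2) CD4SP stage, in 13 libraries, each titled as a mouse of its own. The deposited tables of all stimulated libraries and of unstimulated CtslΔTEC mouse 2 carry other mouse numbers in their names than the titles do, so whether an unstimulated and a stimulated library share a mouse is not known, and the tests treat all as separate. Unstimulated cells came from 5 CtslΔTEC and 4 Ctsl fl/fl (WT) mice. Cells stimulated for 4 h with plate-bound LLO:Iab monomer (1 μg/ml) and soluble anti-CD28 (250 ng/ml) came from 2 CtslΔTEC and 2 WT mice. LLO:Iab is a listeriolysin peptide held by the MHC class II molecule I-Ab, the ligand of the T cell receptor (TCR) that these cells carry.

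Every mouse was on a C57BL/6J background, lacked Rag1 and carried the Lm54 TCR transgene, so the thymocytes of all 4 groups shared 1 TCR. In CtslΔTEC mice a Foxn1-cre transgene removes the floxed Ctsl gene, which encodes the lysosomal protease cathepsin L, from thymic epithelial cells, and the control label pairs WT with floxed alleles. The ages of these mice are not given in the labels. Cells kept for 4 h without antigen were not analysed here, and the stimulated cells share a date with no unstimulated cells, so antigen, culture and date cannot be told apart in the response. Bulk levels cannot tell fewer expressing cells from less RNA per cell.

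IL-2 is made by T cells soon after antigen contact. It binds a receptor of α (Il2ra, CD25), β (Il2rb, CD122) and common γ (Il2rg, CD132) chains. JAK1 and JAK3 on the β and γ chains then phosphorylate STAT5, which enters the nucleus and raises Il2ra and the inhibitor genes. The common γ chain also serves IL-4, IL-7, IL-9, IL-15 and IL-21, and in the thymus IL-7 is the best known of these signals. CISH and SOCS proteins bind activated receptors or kinases and limit the signal.

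Kallisto counts were summed to genes. The estimated counts of a library totalled 25692380 to 39127833 without stimulation and 8085463 to 27184520 with it, WT mouse 5 being the shallowest. Levels between groups are given as CPM, counts scaled to library size with TMM factors, and levels between genes as TPM, which corrects for transcript length. The sum of 6 CD4 T cell marker transcripts was 3933 to 5297 CPM in every library, and the sum of 4 B cell markers at most 1.55 CPM. For 6 erythroid markers the sum was 50.5 to 94.3 CPM in unstimulated WT and 43.5 to 175 CPM in unstimulated CtslΔTEC cells. In stimulated cells that sum was 2.65 to 18.2 CPM. Over all libraries 10 myeloid and dendritic cell markers summed to 13.4 to 43.7 CPM. The 7 natural killer (NK) and NKT cell markers summed to at most 6.90 CPM. The sum of 7 double-positive thymocyte markers was 38.6 to 50.5 CPM in unstimulated WT and 155 to 214 CPM in unstimulated CtslΔTEC cells. The sum of 4 Y-linked transcripts came to 342 to 474 CPM in all 5 unstimulated CtslΔTEC mice and to 393 CPM in WT mouse 3, against 6.28 to 8.47 CPM in the other WT mice. Sex and genotype were thus nearly aligned without stimulation, whereas each stimulated genotype had 1 mouse with and 1 without these transcripts. Ctsl itself was measured at 6.38 to 8.95 CPM in unstimulated WT and 11.5 to 18 CPM in unstimulated CtslΔTEC cells, but the deletion is made in epithelium, so its level in thymocytes does not check the genotype. The AP-1 gene Jun set the 3 unstimulated libraries of the first date apart, at 443 CPM in WT mouse 4, 699.7 CPM in CtslΔTEC mouse 1 and 409 CPM in CtslΔTEC mouse 3, against 2.06 to 45.3 CPM in the 6 of the second date. Fos and Junb were likewise highest in those 3. The second date holds 3 mice of each genotype, and values within it are given beside the members' unstimulated calls and, for other named genes, where a call ended.

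The promoters of 3 members are shown because these members carry the main genotype differences below. Each window holds the 250 bases before the RefSeq start (GRCm38.p6), read 5′ to 3′ on the gene's strand. The genes span chr3:37120523-37125959 (Il2, ENSMUSG00000027720), chr2:11642807-11693193 (Il2ra, ENSMUSG00000026770) and chr11:117966079-117970047 (Socs3, ENSMUSG00000053113) in GRCm38. The Il2 window is chr3:37125955-37126204 (minus strand), the Il2ra window chr2:11642542-11642791 (plus strand) and the Socs3 window chr11:117969367-117969616 (minus strand). Capitals mark the NFAT core (GGAAAA or TTTTCC) and the NF-kB letters (3 G, any 5 bases and 2 C, on either strand) in Il2 and Il2ra, and the STAT palindrome (TTCNNNGAA) in Socs3.
Il2: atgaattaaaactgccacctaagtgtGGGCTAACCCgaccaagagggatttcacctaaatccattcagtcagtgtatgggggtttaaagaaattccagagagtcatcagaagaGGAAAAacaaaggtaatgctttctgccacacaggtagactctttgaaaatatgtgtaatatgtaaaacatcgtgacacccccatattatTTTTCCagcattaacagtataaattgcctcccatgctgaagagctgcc
Il2ra: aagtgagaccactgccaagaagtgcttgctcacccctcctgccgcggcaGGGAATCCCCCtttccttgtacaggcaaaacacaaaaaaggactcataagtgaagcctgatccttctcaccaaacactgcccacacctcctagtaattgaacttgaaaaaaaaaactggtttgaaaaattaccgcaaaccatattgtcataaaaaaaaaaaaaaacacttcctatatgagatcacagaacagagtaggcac
Socs3: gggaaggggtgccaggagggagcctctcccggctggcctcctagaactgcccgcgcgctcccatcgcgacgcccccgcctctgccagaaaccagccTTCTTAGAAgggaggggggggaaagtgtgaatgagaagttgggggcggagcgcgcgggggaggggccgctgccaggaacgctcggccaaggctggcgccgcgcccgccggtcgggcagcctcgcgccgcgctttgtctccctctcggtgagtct

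The Il2 window held 2 NFAT cores, beginning 137 and 48 bases before the start, and 1 NF-kB match 224 bases before it. In Il2ra 2 overlapping NF-kB matches began 201 and 200 bases before the start. Socs3 was the only one of the 9 members with a window here whose sequence held the STAT palindrome, 154 bases before the start. Of 32851 RefSeq windows of this length, 7.02% held the STAT palindrome, 20.4% the NFAT core and 45.8% the NF-kB letters, so a match to the last is common. The AP-1 letters TGANTCA, found in 6.75% of windows, matched in none of the 9 members. A match describes letters and not binding.

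Unstimulated cells barely contained Il2, and stimulated cells contained it at levels that differed between genotypes. Il2 had 0 counts in 3 of the 4 unstimulated WT libraries and 1 count in WT mouse 4. In unstimulated CtslΔTEC cells 4 of 5 libraries had 0 counts and mouse 2 had 2. These counts lie under the 3 that a count of 0 allows in a library, so no fold between unstimulated genotypes is given. After 4 h Il2 stood at 53.1 CPM in WT mouse 5 and 49.8 CPM in WT mouse 6, from 411 and 1306 counts. In CtslΔTEC mouse 6 it was 3.0 CPM and in mouse 7 5.57 CPM, from 34 and 91 counts. Both WT mice were thus well above both CtslΔTEC mice, and the spread within each genotype was small beside the gap. The log2 fold change was −3.55 (SE 0.34, adjusted p = 5.86e-05), an 11.7-fold lower level in CtslΔTEC cells. Among the mice with Y-linked transcripts the level was 8.95-fold higher in the WT mouse, and among those without them 17.7-fold higher. Leaving out CtslΔTEC mouse 7 gave −4.11 and leaving out CtslΔTEC mouse 6 gave −3.19.

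Il2 nevertheless appeared in both genotypes on stimulation. Pooled over libraries, WT cells held 1 count before and 1717 after stimulation, a ratio of 6293 after scaling to library size (95% exact Clopper-Pearson interval of the counts 1128 to 248701). CtslΔTEC cells held 2 and 125 counts, a ratio of 389 (95% exact interval 105.6 to 3250). The intervals overlap, and they cover counting error only, not the spread between mice. The edgeR interaction for Il2 did not pass the test (unadjusted p = 0.0426, adjusted p = 0.283), nor did it in any of 20 alternative edgeR fits (adjusted p 0.192 to 0.879), whereas DESeq2 called it (adjusted p = 0.0837). Its fitted size is not given because unstimulated counts were so few.

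**Figure D1:**
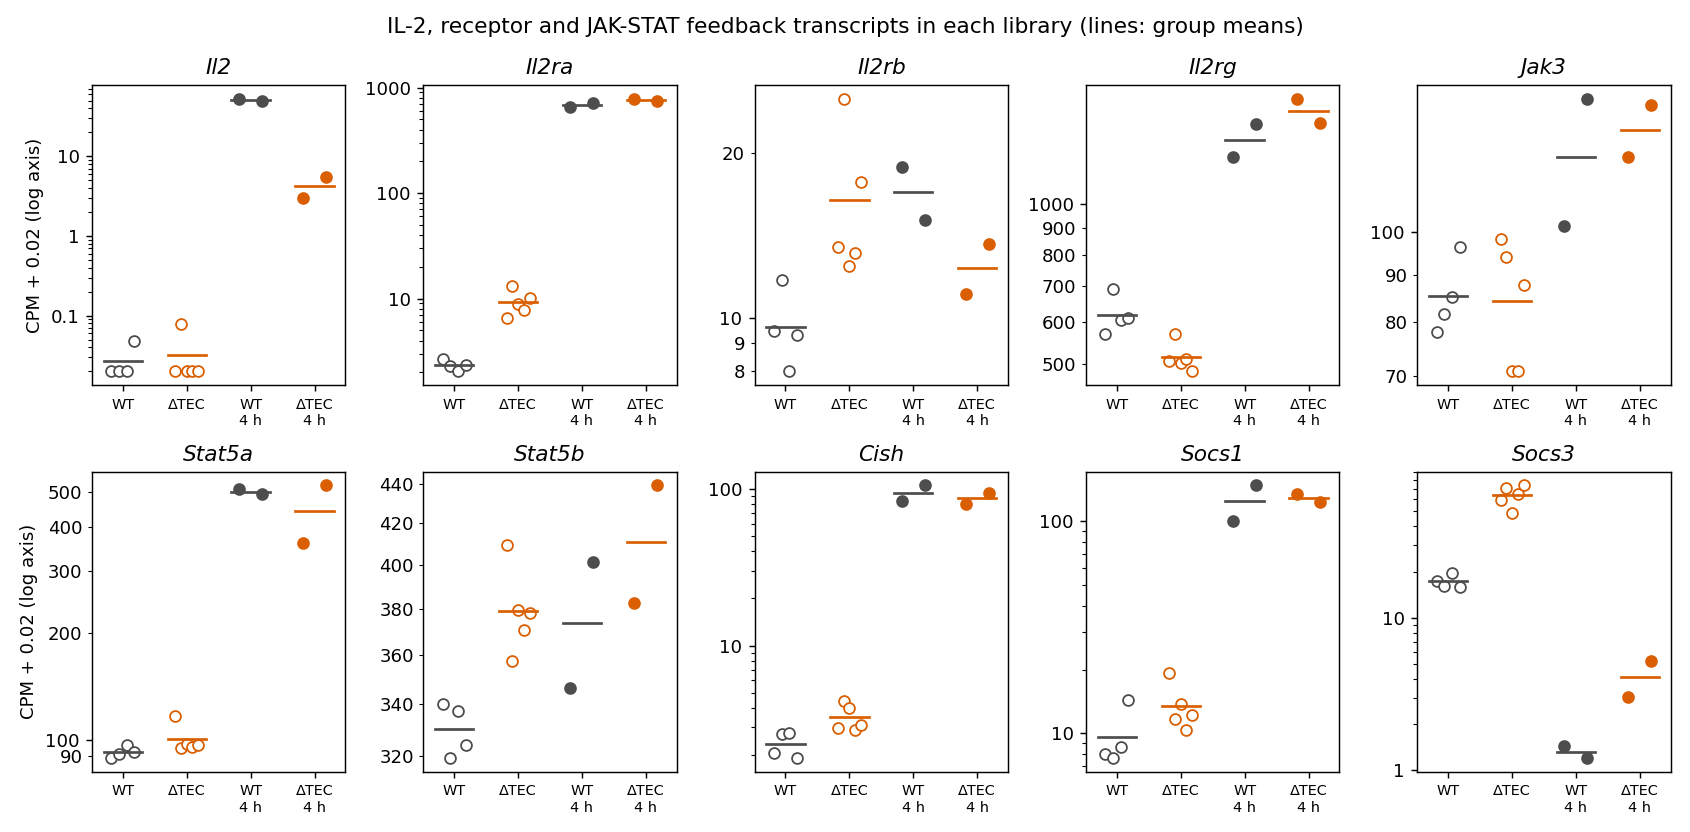
Level of each of the 10 transcripts in each of the 13 libraries, as CPM plus 0.02 on a log axis whose range differs between panels. Open points are unstimulated and filled points stimulated mice, gray WT and orange CtslΔTEC, and lines are group means. Stimulated Il2 sits near 50 CPM in WT and at 3.0 and 5.57 CPM in CtslΔTEC cells, whereas unstimulated Il2ra and Socs3 are higher in all 5 CtslΔTEC mice than in any of the 4 WT mice.

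The receptor chains behaved differently from one another. Il2ra, the α chain that gives the receptor its high affinity, was low in unstimulated cells. In WT mice 1 to 4 it was 2.64, 2.30, 2.02 and 2.31 CPM. In CtslΔTEC mice 1 to 5 it was 6.55, 13, 8.89, 7.83 and 10.1 CPM. The lowest CtslΔTEC mouse was above the highest WT mouse, and the log2 fold change was 2.0 (SE 0.20, adjusted p = 6.82e-05). WT mouse 3, which carries the Y-linked transcripts, had the lowest Il2ra level of all 9 mice. Within the second date the log2 fold change was 2.14, and with the Y-linked level as a covariate it was 2.15 (adjusted p = 0.0190). After stimulation Il2ra reached 655 and 718 CPM in WT and 786 and 738 CPM in CtslΔTEC cells. The stimulated groups lay side by side without overlap, but the log2 difference of 0.16 did not pass the test (95% interval −0.24 to 0.56, adjusted p = 0.709). The response was thus 8.25 on the log2 scale in WT cells and 6.41 in CtslΔTEC cells, and the interaction of −1.83 (SE 0.27, adjusted p = 0.00389) passed the test.

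Il2rb, the β chain shared with IL-15, was 7.98 to 11.7 CPM in unstimulated WT cells. In unstimulated CtslΔTEC cells it was 12.4 to 25.1 CPM, with mouse 2 highest. The groups did not overlap (log2 fold change 0.77, SE 0.20, adjusted p = 0.0327), also within the second date (0.94, adjusted p = 0.0272), but the call ended with the Y-linked covariate (1.02, adjusted p = 0.274). After stimulation Il2rb was 18.9 and 15.1 CPM in WT and 11 and 13.6 CPM in CtslΔTEC cells, an order opposite to the unstimulated one. The stimulated difference of −0.43 did not pass the test (adjusted p = 0.440). Il2rb rose in WT cells (0.85, adjusted p = 0.00843), whereas the CtslΔTEC value of −0.35 did not pass (adjusted p = 0.239) and passed in 1 of 16 alternatives, with library totals alone (−0.49, adjusted p = 0.0986). The interaction of −1.20 (SE 0.36) had an adjusted p of 0.0870 and was past the threshold in 10 of 22 alternative fits.

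Il2rg, the common γ chain, was the most abundant member in every group. Its level in unstimulated WT mice 1 to 4 was 569, 691, 603 and 609 CPM. In CtslΔTEC mice 1 to 5 it was 507, 570, 501, 510 and 484 CPM. Only CtslΔTEC mouse 2 reached into the WT range, and the log2 fold change was −0.26 (SE 0.07, adjusted p = 0.0441), the one member called lower. The call ended without WT mouse 2 (−0.20, adjusted p = 0.128), without CtslΔTEC mouse 5 (−0.24, adjusted p = 0.108), within the second date (−0.25, adjusted p = 0.129), with mouse number as a block (−0.24, adjusted p = 0.134) and with the Y-linked covariate (−0.23, adjusted p = 0.550), and it held in 17 of 22 alternative fits. Stimulation raised Il2rg to 1229 and 1417 CPM in WT and 1581 and 1420 CPM in CtslΔTEC cells. The responses were 1.14 and 1.60 on the log2 scale, and their difference of 0.45 (adjusted p = 0.0994) stood at the edge of the threshold and passed in 8 of 22 alternative fits.

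Jak3, the kinase bound to the γ chain, was 78.1 to 96.3 CPM in unstimulated WT and 70.7 to 98.2 CPM in unstimulated CtslΔTEC cells. The groups overlapped throughout, with a log2 difference of −0.01 (95% interval −0.23 to 0.21, adjusted p = 0.970). It rose by 0.55 in WT and 0.67 in CtslΔTEC cells on the log2 scale (adjusted p = 0.00551 and 0.000864), and without stimulated WT mouse 6 the WT value was 0.29 (adjusted p = 0.216).

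STAT5 is encoded by a pair of close paralogs that lie next to each other on chromosome 11, and kallisto divides the reads that fit both. Stat5a was 88.7 to 96.7 CPM in unstimulated WT and 94.6 to 117 CPM in unstimulated CtslΔTEC cells, a difference of 0.13 that did not pass the test (adjusted p = 0.339). Stimulated levels were 509 and 493 CPM in WT and 360 and 523 CPM in CtslΔTEC cells, with CtslΔTEC mouse 6 lowest. Stat5a rose by 2.49 in WT and 2.20 in CtslΔTEC cells on the log2 scale (adjusted p = 2.85e-10 and 3.33e-10). The stimulated difference of −0.17 (adjusted p = 0.549) became −0.49 (adjusted p = 0.0609) without CtslΔTEC mouse 7.

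Stat5b was 319 to 340 CPM in unstimulated WT and 357 to 409 CPM in unstimulated CtslΔTEC cells, without overlap (log2 fold change 0.20, SE 0.06, adjusted p = 0.0512). That call ended without WT mouse 2 (0.19, adjusted p = 0.128), within the second date alone (0.15, adjusted p = 0.166), with mouse number as a block (0.21, adjusted p = 0.198), with no count filter (0.19, adjusted p = 0.139), with a transcript length offset (0.19, adjusted p = 0.133) and with the Y-linked covariate (0.18, adjusted p = 0.591), and it held in 16 of 22 alternative fits. Its response was small, 0.23 in WT (adjusted p = 0.0384) and 0.17 in CtslΔTEC cells (adjusted p = 0.0946). The WT call ended without stimulated WT mouse 6 (0.11, adjusted p = 0.448) or unstimulated WT mouse 2 (0.18, adjusted p = 0.135). Both response calls ended with upper-quartile factors (0.15 and 0.12), with library totals alone (0.14 and 0.027) and with no count filter (0.18 and 0.12), and they held in 10 of 15 and 10 of 16 alternative fits. The CtslΔTEC call ended without stimulated mouse 7 (0.04, adjusted p = 0.802), unstimulated mouse 4 (0.17, adjusted p = 0.140) or unstimulated mouse 5 (0.17, adjusted p = 0.129). The ratio of Stat5a to Stat5b on the TPM scale was 0.343 to 0.393 over all 9 unstimulated libraries and 1.47 to 2.38 over the 4 stimulated ones. Stat5b was thus the more abundant paralog before stimulation and Stat5a after it, in every library of both genotypes.

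Of the feedback inhibitors, Cish and Socs1 rose on stimulation and Socs3 fell. Cish, a STAT5 target whose product binds the activated receptor, was 2.02, 2.69, 2.74 and 1.89 CPM in unstimulated WT mice 1 to 4. In CtslΔTEC mice 1 to 5 it was 2.95, 4.38, 3.98, 2.88 and 3.07 CPM. The groups lay close together without overlap (log2 fold change 0.57, SE 0.19, adjusted p = 0.0885), and leaving out any of WT mice 1 to 4 or of CtslΔTEC mice 2, 3 and 5 ended the call. The call also ended within the second date (0.47, adjusted p = 0.248) and with the Y-linked covariate (0.31, adjusted p = 0.815), and it held in 10 of 22 alternative fits, which ranged from 0.31 to 0.65. Stimulated Cish was 84.1 and 105.8 CPM in WT and 80.1 and 95.1 CPM in CtslΔTEC cells. The responses were 5.41 and 4.73 on the log2 scale, and the stimulated difference of −0.11 did not pass the test (95% interval −0.49 to 0.28, adjusted p = 0.812).

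Socs1, which blocks JAK kinases directly, was 7.95, 7.62, 8.62 and 14.3 CPM in unstimulated WT mice 1 to 4. In CtslΔTEC mice 1 to 5 it was 19.3, 11.7, 13.8, 10.3 and 12.2 CPM. WT mouse 4 and CtslΔTEC mouse 1, the highest of each genotype, carry the same date. The log2 difference of 0.49 did not pass the test (adjusted p = 0.204), but it passed with date as a factor (0.41, adjusted p = 0.0369), within the second date (0.50, adjusted p = 0.0213) and without WT mouse 4 (0.74, adjusted p = 0.0342). Stimulated levels were 101 and 148 CPM in WT and 134 and 124 CPM in CtslΔTEC cells. The responses were 3.74 and 3.31 on the log2 scale, and the stimulated genotypes overlapped.

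Socs3, which binds JAKs and receptors of the gp130 family and restrains IL-6 signals in particular, was 17.4, 16.2, 19.8 and 16.0 CPM in unstimulated WT mice 1 to 4. In CtslΔTEC mice 1 to 5 it was 58.9, 71.5, 48.5, 64.8 and 74.1 CPM. The lowest CtslΔTEC level was well above the highest WT level, and WT mouse 3 lay with the other WT mice. The log2 fold change was 1.88 (SE 0.12, adjusted p = 4.03e-06), 1.98 within the second date, where it also passed, and 1.67 (adjusted p = 0.00348) with the Y-linked covariate. After stimulation Socs3 was 1.42 and 1.18 CPM in WT cells, from 11 and 31 counts. In CtslΔTEC cells it was 3.0 and 5.20 CPM, from 34 and 85 counts. It had fallen by 3.74 in WT and by 3.86 in CtslΔTEC cells on the log2 scale (adjusted p = 1.36e-08 and 9.88e-10). The genotype difference was still present at this lower level (1.76, SE 0.32, adjusted p = 0.00359), and the interaction of −0.12 (95% interval −0.84 to 0.60, adjusted p = 0.937) did not pass the test. Within the Y-linked pairs the CtslΔTEC mouse was 4.40-fold and 2.11-fold higher.

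**Figure D2:**
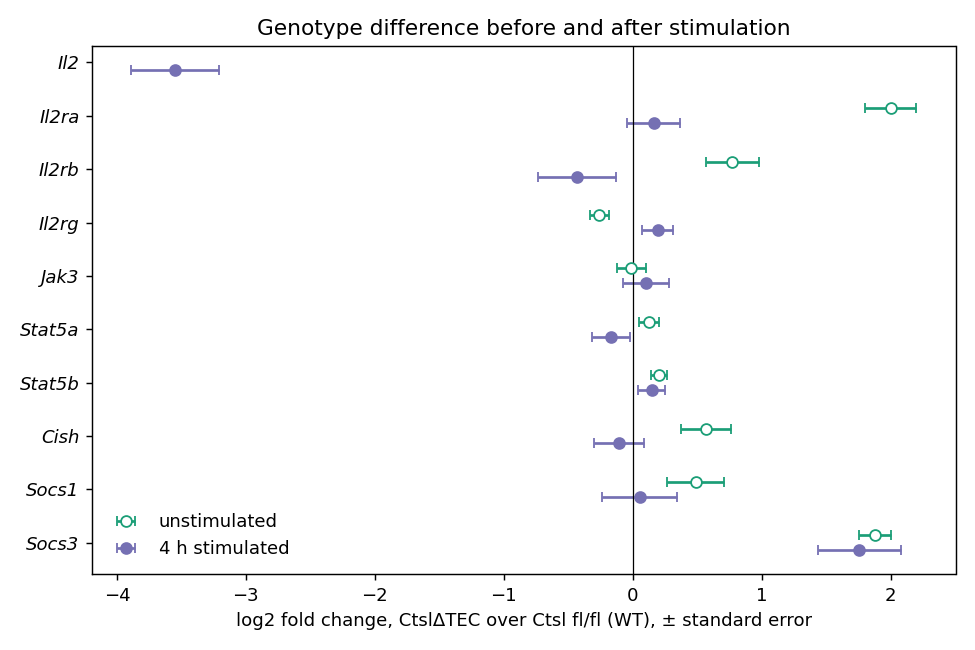
Log2 fold change of CtslΔTEC over WT cells for each member, with its standard error, in unstimulated (open) and stimulated (filled) cells. Il2 was not tested without stimulation. Il2ra moves from 2.0 to 0.16, Socs3 stays near its unstimulated value (1.88 and 1.76), and stimulated Il2 stands at −3.55.

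Over the 9 members tested without stimulation, 5 were higher and 1 lower in CtslΔTEC cells, where 14.8% of 13152 genes were called (6.42% higher, 8.36% lower). The genotypes did not overlap for Il2ra, Il2rb, Stat5b, Cish and Socs3, as for 13.9% of genes. In stimulated cells 1 of 10 was higher (Socs3) and 1 lower (Il2), where 13.3% of 14241 genes were called (2.77% higher, 10.6% lower). Il2ra, Il2rb, Il2rg, Il2 and Socs3 did not overlap between the stimulated genotypes, as for 49.6% of genes with 2 mice a group. All 10 members, Il2 with its 0 to 2 unstimulated counts among them, passed in the WT response, 9 higher and 1 lower, where 67.7% of genes were called (32.9% higher, 34.8% lower) and 69.2% did not overlap. In the CtslΔTEC response 8 were higher and 1 lower, where 71.2% were called (32.9% higher, 38.2% lower) and 71.6% did not overlap. Il2 is among the higher members in both responses. It passed the filter on low counts only through the stimulated libraries, so it had to be higher there. The interaction was called for 3 members (Il2ra and Il2rb lower, Il2rg higher) and for 6.01% of genes (1.13% higher, 4.88% lower). The members were picked with these contrasts known, so nothing is read from these shares. The unstimulated libraries are shared between each response and the interaction. The double-positive thymocyte markers listed above moved with genotype in the same libraries as Il2ra and Socs3, and 5 of the 6 of them that were tested were higher in unstimulated CtslΔTEC cells (Cd8a and Cd8b1 alone with the Y-linked covariate). In stimulated cells 3 of 7 were higher, and their sum was 22.1 to 29.2 CPM in WT and 68.3 to 75.6 CPM in CtslΔTEC cells. The 5 mature thymocyte markers moved the other way. All 5 were lower in unstimulated CtslΔTEC cells (sum 3061 to 3451 CPM in WT and 2050 to 2423 CPM in CtslΔTEC cells, Ccr7 and S1pr1 alone with the Y-linked covariate) and 4 of 5 in stimulated ones (381 to 620 CPM and 237 to 312 CPM). Regulatory T cells are rich in Il2ra, and their defining marker Foxp3 was 0.620 to 1.12 CPM in unstimulated WT and 0.675 to 1.17 CPM in unstimulated CtslΔTEC cells, with at most 2 counts in a stimulated library. Of the other markers of that list, without stimulation Ctla4 was higher (1.66, adjusted p = 0.0188) and Ikzf2 lower (−0.72, adjusted p = 0.00862) in CtslΔTEC cells, the latter not with the Y-linked covariate (−0.45, adjusted p = 0.506), and Il10 was at or near 0. The whole list summed to 34.7 to 46.5 CPM in unstimulated WT and 36.2 to 46.6 CPM in unstimulated CtslΔTEC cells. After stimulation that sum was 124 to 165 CPM in WT and 85.1 to 101 CPM in CtslΔTEC cells, most of it Tnfrsf4 and Tnfrsf18, which also respond to IL-2. Without stimulation, of 3 tested NK and NKT cell markers Nkg7 (−2.19, adjusted p = 0.000242) and Klrd1 (−1.20, adjusted p = 0.00438) were lower in CtslΔTEC cells. Of 9 tested myeloid and dendritic cell markers Csf1r was higher (1.30, adjusted p = 0.0824) and Itgam lower (−0.77, adjusted p = 0.00553). Epcam was higher (0.77, adjusted p = 0.0469) as 1 of 2 tested thymic epithelial markers. Of these only Nkg7 passed with the Y-linked covariate (adjusted p = 0.0249). The part of any of these cell types in the results was not tested.

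Measured per length, the order of the members changed with stimulation. In unstimulated WT cells Il2rg led at 627 ± 49.8 TPM (SD, n = 4), followed by Stat5b at 98.4 ± 6.63, Stat5a at 36.9 ± 1.68, Jak3 at 29.8 ± 2.27 and Socs3 at 25.6 ± 6.80 TPM. The ranges of Jak3 and Socs3 overlapped. Socs1, Il2rb, Cish and Il2ra lay between 4.76 and 0.785 TPM, and the last pair overlapped. In unstimulated CtslΔTEC cells Socs3 came next after Stat5b, at 91.5 ± 16.6 TPM (SD, n = 5) beside 116 ± 9.77 TPM, and the ranges overlapped.

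In stimulated WT cells Il2ra had climbed to 257 ± 40.7 TPM (SD, n = 2), second to Il2rg and overlapping Stat5a. Il2 stood at 72.0 ± 1.29 TPM in these cells, above Cish and Il2rb, and Socs3 was lowest at 1.26 ± 0.777 TPM. In stimulated CtslΔTEC cells Il2 was 5.98 ± 2.55 TPM, in the lowest ranks with Socs3 and Il2rb. Il2rb mRNA was the scarcest of the receptor chains in both stimulated genotypes, at 5.56 ± 0.105 and 4.21 ± 0.0761 TPM.

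The share of each gene's TPM on each of its transcripts was not used to choose the members. Of 27 transcripts tested between unstimulated genotypes with an exact permutation test of the 9 mice (two-sided), 0 passed an adjusted p of 0.1 and 4 had an unadjusted p under 0.05. The smallest p this design allows is 0.00794, and the smallest adjusted p was 0.214. Il2ra-201 carried 89.5% ± 7.64 (SD, n = 4) of Il2ra TPM in WT and 75.7% ± 4.89 (SD, n = 5) in CtslΔTEC cells (exact p = 0.0159), and its level rests on as few as 54 Il2ra counts in a WT library. Stat5b-202 carried 15.3% ± 1.29 in WT and 20.8% ± 3.54 in CtslΔTEC cells (exact permutation p = 0.0159), and Stat5b-201 71.4% ± 1.91 and 66.4% ± 2.64 (exact permutation p = 0.0238). For Il2rg-201 the shares were 82.5% ± 0.982 and 79.5% ± 1.86 (exact permutation p = 0.0317).

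In the stimulated libraries, where shares are given without a test, Stat5a-206 carried 22.8% to 28.4% of Stat5a TPM in the 4 mice, against 4.37% to 12.0% in the 9 unstimulated mice. Stat5b-202 lay lower than in unstimulated cells, at 7.67% to 10.2%. Cish-202, annotated as a processed transcript, carried 33.6% and 35.8% in stimulated WT and 41.7% and 45.0% in stimulated CtslΔTEC cells. These transcripts were singled out after their values were seen.

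**Figure D3:**
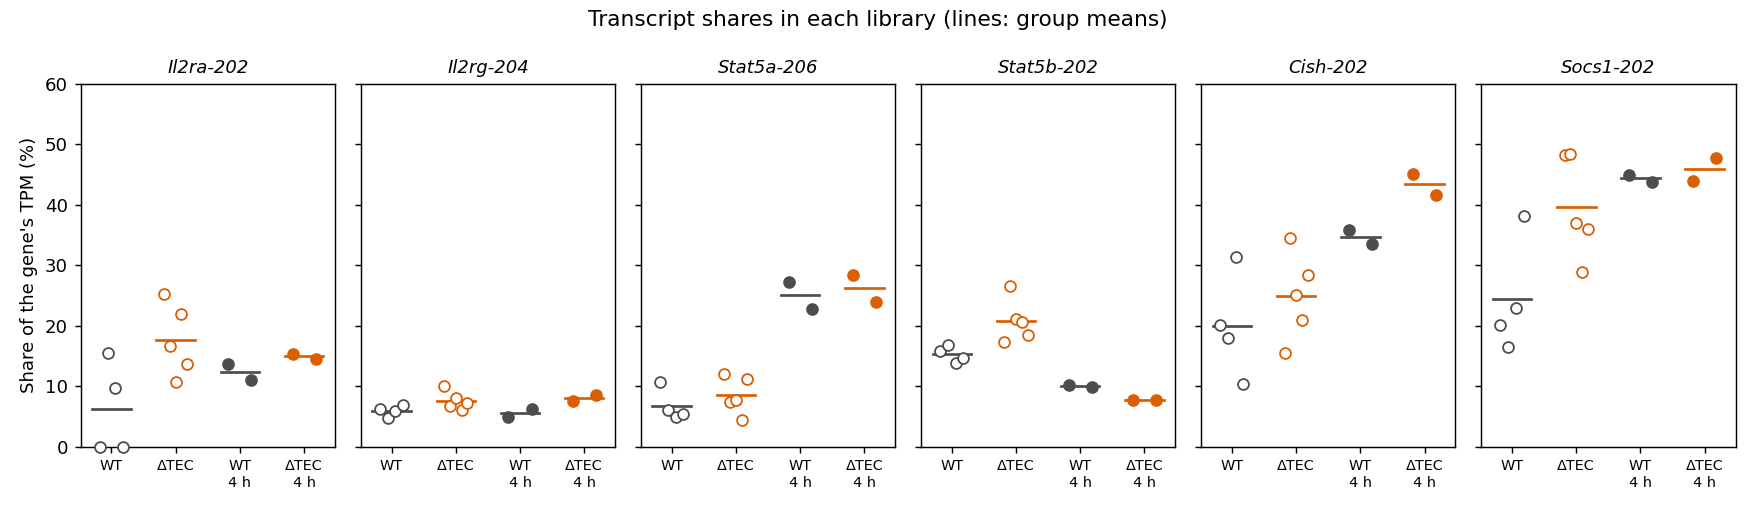
Percentage of a gene's TPM on the second most abundant transcript of 6 members in each library (ranked by mean share over all libraries), open for unstimulated and filled for stimulated mice, gray for WT and orange for CtslΔTEC, with lines at group means. Stat5a-206 is at 22.8% to 28.4% in stimulated cells and at most 12.0% in unstimulated ones. The unstimulated genotypes overlap for Il2ra-202, Il2rg-204, Socs1-202, Stat5a-206 and Cish-202.

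The counts of calls in the pathway lists are read against the 14.8% of all genes called between unstimulated genotypes, and nothing particular to a list is drawn from them. In unstimulated cells none of 8 other JAKs and STATs and none of 15 other inhibitors (remaining SOCS, PIAS and PTPN genes, Sh2b3 and Cblb) passed the edgeR test at an adjusted p of 0.1, and their median log2 fold changes were 0.03 and −0.01 beside 0.01 over all genes. At an unadjusted p under 0.05 the edgeR counts were 0 and 3, and DESeq2 called 0 and 1 (the phosphatase gene Ptpn2). The next list holds cytokines and receptors of the common γ family and Crlf2, a chain of the TSLP receptor, which pairs with the IL-7 receptor α chain and not with the common γ chain. Of its 5 tested genes Il7r, the α chain of the IL-7 receptor, was lower by −1.08 (SE 0.17, adjusted p = 0.00194) and the others did not pass (median −0.36, the value of Crlf2 itself, and −0.32 without Crlf2). Il7r was 73.1 to 107 CPM in unstimulated WT and 35.5 to 62.7 CPM in unstimulated CtslΔTEC cells, and it also stands among the mature thymocyte markers. In the list of 9 tested receptor adaptors and kinases (median −0.11), Mapk3 (−0.27, adjusted p = 0.0429) and Akt1 (−0.24, adjusted p = 0.0810) were lower. With the Y-linked covariate the calls of Il7r (−0.78, adjusted p = 0.235), Mapk3 (−0.36, adjusted p = 0.235) and Akt1 (−0.37, adjusted p = 0.229) ended, and that of Akt1 also ended within the second date (−0.23, adjusted p = 0.127).

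Genes known to respond to IL-2 or STAT5 moved in both directions without stimulation. Of 16 tested (median 0.04), 4 were higher and 1 lower, beside 6.42% and 8.36% of all genes. Bcl6, a repressor that opposes STAT5 targets, was higher by 0.79 (SE 0.08, adjusted p = 0.000116) and Lta, encoding lymphotoxin α, by 0.74 (adjusted p = 0.000687). Prdm1 (0.45, adjusted p = 0.0150), which encodes BLIMP1, and Prf1 (0.46, adjusted p = 0.0517), which encodes perforin, were also higher. Ccnd2, which encodes cyclin D2, was lower by −1.22 (SE 0.11, adjusted p = 4.92e-05). With the Y-linked covariate Bcl6, Lta and Ccnd2 passed (adjusted p = 0.00954, 0.0263 and 0.00156), whereas Prdm1 (0.43, adjusted p = 0.365) and Prf1 (0.085, adjusted p = 0.932) did not.

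After stimulation 2 genes of this list were higher and 4 lower among 18 tested, with a median of −0.40 beside −0.05 over all genes. Of all genes 2.77% were higher and 10.6% lower. The 18 include Lif and Gzmb, which passed the filter on low counts only through the stimulated libraries. Over the 16 genes also tested without stimulation, 2 were higher and 3 lower, with a median of −0.30. Bcl6 (0.59, adjusted p = 0.0300) and Prf1 (0.75, adjusted p = 0.0459) were higher. Tnfrsf4 (−0.94, adjusted p = 0.0146) and Tnfrsf18 (−0.71, adjusted p = 0.0417), which encode the co-stimulatory receptors OX40 and GITR, were lower. Lif, a cytokine gene, was 78.3 and 111 CPM in WT and 45.7 and 59.6 CPM in CtslΔTEC cells (−0.84, adjusted p = 0.0779), and Ccnd3 was lower by −0.53 (adjusted p = 0.0321).

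The other lists in stimulated cells stand beside the same 13.3% of all genes called. The list of the common γ family and Crlf2 had Il21r higher (0.74, SE 0.09, adjusted p = 0.000247) and Il7r lower (−1.72, SE 0.30, adjusted p = 0.00296) among 6 tested (median 0.19, and 0.30 without Crlf2). Both medians include Il7, at 2 to 18 counts in a stimulated library, which passed the filter on low counts only through those libraries. The 5 genes also tested without stimulation had a median of 0.08. Stat6, which carries IL-4 signals, was higher (0.36, adjusted p = 0.0436) as 1 of 8 JAKs and STATs (median −0.20). Sh2b3, which encodes the adaptor LNK, was higher (0.53, adjusted p = 0.0982) as 1 of 15 inhibitors (median 0.10). Among 9 adaptors and kinases (median −0.24) 3 were lower, and these were Pik3cd (−0.82, adjusted p = 0.00342) and Pik3r1 (−0.59, adjusted p = 0.0743), subunits of phosphoinositide 3-kinase, and Mapk3 (−0.44, adjusted p = 0.0457).

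Of 13 tested genes encoding factors that act at the Il2 promoter, 1 was higher and 2 were lower without stimulation. Jun, Junb and Fos are in this list and did not pass, with the spread by date given above. Fosl2, an AP-1 subunit, was 5.77 to 12.8 CPM in unstimulated WT and 1.37 to 2.62 CPM in unstimulated CtslΔTEC cells (−2.19, SE 0.25, adjusted p = 0.000167). Its interaction was 2.50 (adjusted p = 0.00377), and stimulated levels were 323 and 412 CPM in WT and 481 and 418 CPM in CtslΔTEC cells. Ikzf3, which encodes Aiolos, a factor known to silence Il2 in helper T cells, was 114 to 128 CPM in unstimulated WT and 169 to 194 CPM in unstimulated CtslΔTEC cells (0.60, adjusted p = 0.000105). In stimulated cells Ikzf3 was 161 and 201 CPM in WT and 377 and 367 CPM in CtslΔTEC cells (1.05, SE 0.11, adjusted p = 8.80e-05), and its interaction was 0.45 (adjusted p = 0.0778).

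Ikzf1, encoding the related factor Ikaros, was lower without stimulation (−0.27, adjusted p = 0.0189). With the Y-linked covariate Fosl2 and Ikzf3 passed (adjusted p = 0.0384 and 0.0189) and Ikzf1 did not (−0.21, adjusted p = 0.495). After stimulation Fosl1, another AP-1 subunit, was lower (−1.85, SE 0.40, adjusted p = 0.00964), and Nfatc1 (0.54, adjusted p = 0.0219) and Rel (0.57, adjusted p = 0.0737), encoding an NFAT and an NF-kB protein, were higher. The list medians were −0.02 over 13 genes without stimulation and 0.16 over 14 genes with it. The latter include Fosl1, which passed the filter on low counts only through the stimulated libraries. Over the same 13 genes the stimulated median was 0.25, with 3 higher and 0 lower. Whether any of these factors bears on Il2 was not tested.

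**Figure D4:**
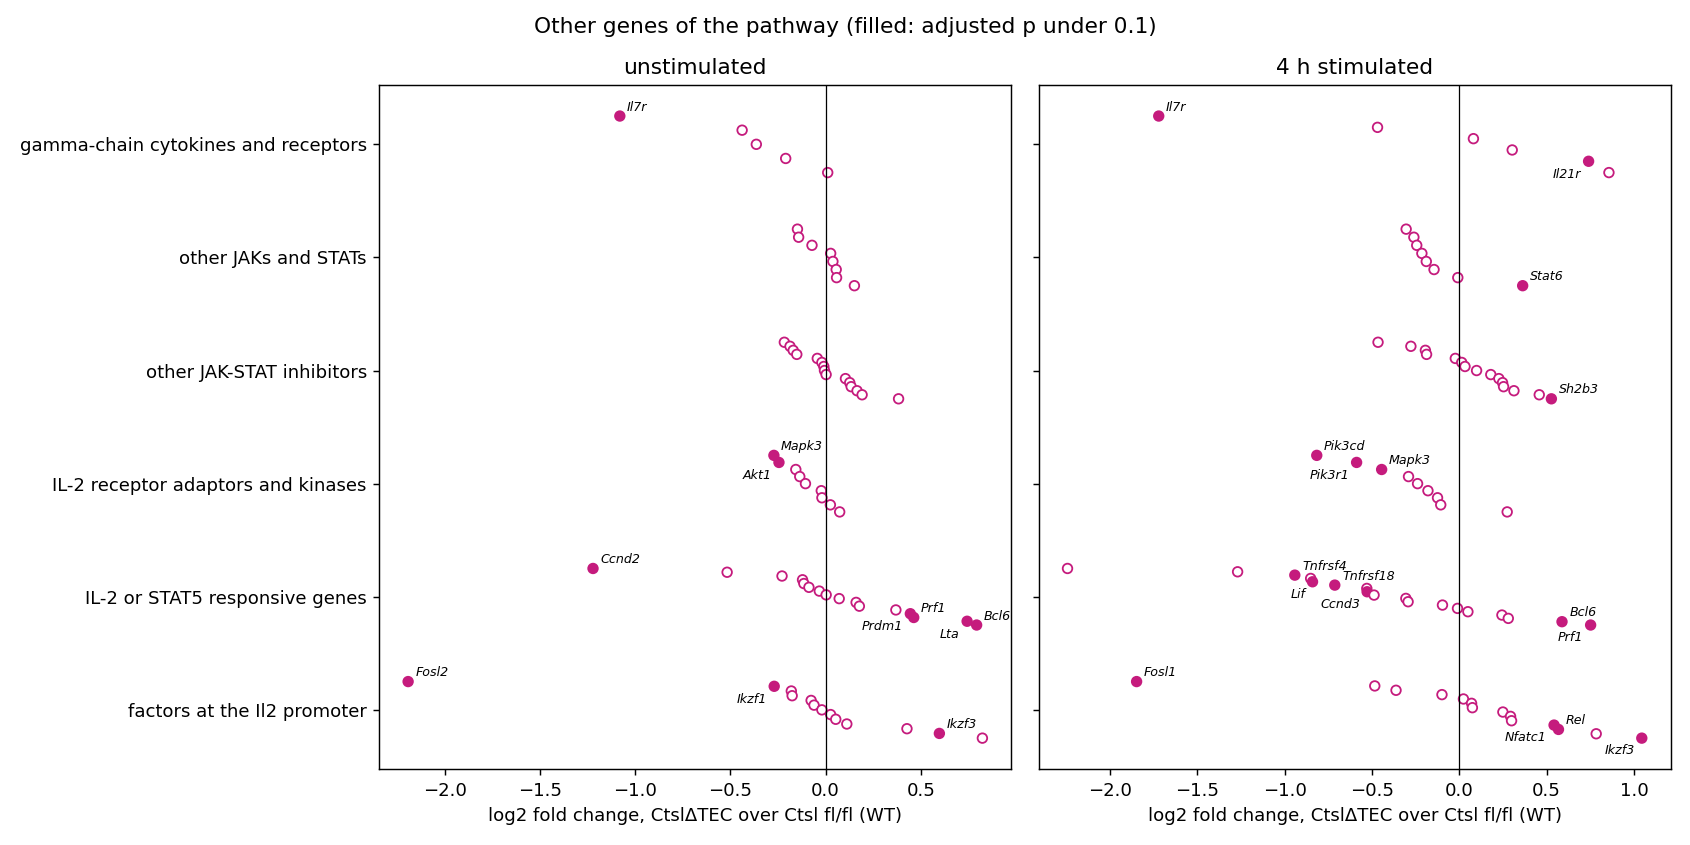
Log2 fold change of CtslΔTEC over WT cells for the genes of 6 pathway lists, unstimulated on the left and stimulated on the right. Each point is a gene, and filled, named points passed an adjusted p of 0.1. The other JAKs and STATs and the other inhibitors lie near 0 in unstimulated cells, and Fosl2 (−2.19), Ccnd2 (−1.22) and Il7r (−1.08) lie farthest to the left.

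The response called 67.7% of all genes in WT and 71.2% in CtslΔTEC cells, and the counts in the lists are given beside these shares as a description. Of the 16 IL-2 or STAT5 responsive genes that were also tested without stimulation, 9 rose and 6 fell in WT cells, and 10 rose and 6 fell in CtslΔTEC cells. Lif, Gzmb and the promoter factor Fosl1, with 0 to 9 counts in an unstimulated library, passed the filter on low counts only through the stimulated libraries, so they had to be higher there and are left out of these counts. Myc, a driver of growth, rose by 3.76 and 4.13 on the log2 scale, and Bcl6 by 4.04 and 3.84. Of 13 promoter factors 8 rose and 1 fell in each genotype, with Nfkb1 at 3.42 and 3.78 and Rel at 4.17 and 4.82. Jak2 rose by 2.84 and 2.54, and Stat2 was lower by −1.96 and −2.02. In each genotype 5 of the 8 other JAKs and STATs fell, and 6 of 9 adaptors and kinases fell, among them Pik3cd (−2.37 and −3.16). Sh2b3 (3.10 and 3.65) and Cblb (2.06 and 1.88), which restrain cytokine and antigen receptor signals, rose in both. Il15ra, the IL-15 counterpart of Il2ra, rose by 3.83 and 3.80. The interaction passed for Pik3cd (−0.79, adjusted p = 0.0263), Tnfrsf4 (−1.31, adjusted p = 0.0186), Ccnd2 (0.92, adjusted p = 0.0526), Il21r (0.73, adjusted p = 0.00389), Il4ra (0.52, adjusted p = 0.0778) and Ptpn2 (0.47, adjusted p = 0.0886).

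The genes whose pattern lay closest to that of Il2 were sought over all 13 libraries, by the root mean square distance of log2 CPM about each gene's mean, among 14241 genes. They were Tnnt2 (0.85), Fosl1 (0.91) and Plagl1 (1.00). Their likeness to Il2 was measured over the stimulated libraries as well, so the genotype order of their levels is part of the choice. Their stimulated levels were 14.7 and 4.45 CPM for Tnnt2, 9.35 and 2.55 CPM for Fosl1 and 10.2 and 4.32 CPM for Plagl1 (group means, WT first). Closest to Cish were Prnp (0.30), Pou2af1 (0.30) and Map3k8 (0.31), and stimulated Prnp was 48.4 CPM in WT and 48.3 CPM in CtslΔTEC cells.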

How the data were processed

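RNA sequencing of 13 libraries was used as deposited. The authors quantified reads per transcript with kallisto 0.48 (index from Ensembl release 106). Their deposited tables hold estimated counts, which are not normalized, and TPM. Of 117497 transcripts, 116397 were paired with a gene through GENCODE M21 (GRCm38), which gives the coordinates of the members, and the rest took at most 0.461% of a library. Values were summed to genes and counts rounded. Groups, stimulation and mouse numbers came from the labels, and dates from the names of the deposited tables.

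Genes kept by filterByExpr were scaled by TMM and compared in edgeR 4.0.16 (R 4.3.3) with its quasi-likelihood test. The p values were adjusted over all genes tested (Benjamini-Hochberg), with a threshold of 0.1. The unstimulated comparison used 9 libraries, and the others a 4-group model of 13. Titles number each library as a separate mouse, but the names of some deposited tables carry other numbers. The tests take the libraries as independent. SEs were derived from the fold change and F. Log2 CPM used a prior count of 2. DESeq2 1.42.0, other scalings and filters, date, the Y-linked level and leaving out each mouse were alternatives. Scripts were tested on simulated data.

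The members and all gene lists were chosen with earlier results of these data known. From each list the 3 genes with the smallest p per comparison were eligible for naming if past the threshold, plus any that a count of 5 or fewer rests on. The labels give polyadenylated RNA and the methods rRNA depletion, and this was not settled here.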

Additional observations from a re-analysis of the deposited data

Results flagged for a closer look

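The genotype difference changed with stimulation, by a test of the interaction in edgeR, for 3 members. These were Il2ra (−1.83, adjusted p = 0.00389), Il2rb (−1.20, adjusted p = 0.0870) and Il2rg (0.45, adjusted p = 0.0994). Over 22 alternative fits the adjusted p ranged up to 0.0268 for Il2ra, from 0.0240 to 0.307 for Il2rb and from 0.0130 to 0.363 for Il2rg.

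In unstimulated CtslΔTEC cells Stat5a of mouse 1, at 6.87 log2 CPM, stood apart from the other 4 mice. It was the 1 case among 18 groups of members so examined, where chance gives 0.9.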

How the results depend on the processing

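Il2, Il2ra and Socs3 kept their calls between genotypes under every alternative that tested them. With the Y-linked level as a covariate, 2 members (Il2ra and Socs3) and 432 genes were called without stimulation, and the interaction was called for 1 member. Without stimulation this level and genotype were nearly aligned, with WT mouse 3 the exception, so sex and genotype can hardly be told apart there. Why calls ended with this covariate was not tested. The interaction was also called for 1 member with a transcript length offset and at an adjusted p of 0.05, where 471 genes passed. With at least 10 counts in every library Il2 left the test and 1 member was called in stimulated cells, and the 4 stimulated libraries alone gave 1127 genes. With library totals alone the share of higher calls without stimulation was 56.8% instead of 43.4%, and the median of all genes in the CtslΔTEC response was −0.21 instead of −0.06. Between stimulated genotypes 20.8% of the calls were higher. That share was 17.5% with no count filter, 30.3% with upper-quartile factors and 36.6% with at least 10 counts in every library.

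Mouse numbers did not pair the unstimulated samples (correlations of deviations −0.16, 0.35, −0.10 and −0.14). A replicate block gave 1051 genes and 4 members. No paired analysis was possible for stimulated cells because in the titles those groups share only number 6, and the numbers in the table names conflict with the titles. With 1 mouse left out, genes called ran from 1534 to 2343 without stimulation, 945 to 2235 with it, 8353 to 9579 and 8975 to 10146 in the WT and CtslΔTEC responses and 334 to 1227 for the interaction. Members called ran from 3 to 6, 2 to 3, 8 to 10, 8 to 9 and 1 to 3 in the same order. The fewest unstimulated members, 3, came without WT mouse 2. Stimulated genes fell to 966 without WT mouse 5, 945 without CtslΔTEC mouse 6 and 1254 without CtslΔTEC mouse 7. The lone mouse left in a stimulated group was assumed to vary like the others.

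Signs turned only for values that had not passed the test. Jak3 without stimulation was 0.0044 with upper-quartile factors, 0.035 with library totals, 0.0073 with the Y-linked covariate and 0.044 within the second date, and −0.0746 to 0.0511 with 1 mouse left out. The interaction of Stat5b was 0.0033 with the 10-count filter and 0.044 with the Y-linked covariate, and that of Socs3 was 0.17 with the Y-linked covariate and 0.42 with the length offset. With 1 mouse left out these ran from −0.18 to 0.0455 and −0.62 to 0.19, and the interaction of Jak3 from −0.0898 to 0.36. Stimulated differences so ran from −0.10 to 0.35 for Jak3, −0.49 to 0.0764 for Stat5a, −0.26 to 0.0606 for Cish and −0.19 to 0.35 for Socs1. Depth limits Socs3 after stimulation and Il2 before it.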
